A study of Mus musculus with 2 samples.

Results

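Transcripts of 6 genes of the interleukin 1 family were followed through mouse bone marrow cultures given heme or vehicle. The genes were the ligands Il1a, Il1b, Il1f9 and Il18, the receptor antagonist Il1rn and the decoy receptor Il1r2. They were chosen by name as ligand, antagonist and decoy genes of the family, with earlier results of these data known, and all 6 were found among the 26124 genes of both count matrices. The list is not complete, and 6 other ligands and binding proteins (Il33, Il1f5, Il1f6, Il1f8, Il1f10 and Il18bp) are counted with the pathway genes. Lineage-depleted bone marrow cells of C57BL/6 mice aged 8 to 10 weeks were cultured in GM-CSF at 20 ng/ml, under which progenitors give rise to neutrophils, macrophages and dendritic cells. The control library held cultures given albumin, and the heme library held cultures given 300 µM heme-albumin, in both cases on day 3. Each library was a pool of 5 cultures that carried antibody-bound hashtags for days 0, 3, 4, 5 and 7, so that days 0 and 3 lay before the exposure. Each group was therefore 1 library without a replicate, and the donor mice behind the cultures are not distinguished by the labels. No test between conditions was possible, and every difference between libraries stands without a replicate check. Brackets hold 95% intervals, which account for the counting of UMIs and for nothing else.

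Ligands of this family act on receptor pairs that signal through Myd88 and the Irak kinases to NF-kB. Il1b and Il18 are made as precursors that inflammasomes activate through caspase-1, whereas the Il1a product is active on release from damaged cells. The antagonist encoded by Il1rn blocks the signalling receptor, and the decoy encoded by Il1r2, which neutrophils carry in quantity, binds the ligand without signalling. Il1f9 encodes the gamma form of IL-36, a cytokine best known from skin and other epithelia, which binds the receptor chain encoded by Il1rl2.

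All 6 genes are protein coding, and 4 of them lie on mouse chromosome 2 (GRCm38). Il1a (chr2:129299610-129309972) and Il1b (chr2:129364570-129371139) are on the minus strand with 54.6 kb between them. Il1f9 (chr2:24186476-24193568) and Il1rn (chr2:24336853-24351494) are on the plus strand with 143 kb between them. Il1r2 (chr1:40074079-40125231) and Il18 (chr9:50554827-50581840) stand apart from both pairs. The promoters of the 4 ligands are shown so that Il1f9 and Il18, the ligands higher under heme on day 7, can be set beside Il1a and Il1b. Each is the run of 250 bases before a RefSeq start site in GRCm38.p6, at chr2:24186226-24186475 for Il1f9, chr2:129309973-129310222 for Il1a, chr2:129371140-129371389 for Il1b and chr9:50554450-50554699 for Il18. Capitals mark matches to TATAAA (the core promoter box), TGANTCA (AP-1 type) or TGCTGAC, a core of the element bound by small Maf proteins, on either strand.
Il1f9: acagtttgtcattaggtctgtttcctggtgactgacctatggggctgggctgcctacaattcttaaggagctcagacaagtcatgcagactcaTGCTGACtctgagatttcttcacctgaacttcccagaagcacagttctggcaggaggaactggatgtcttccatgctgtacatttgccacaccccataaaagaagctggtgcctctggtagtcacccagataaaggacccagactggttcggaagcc
Il1a: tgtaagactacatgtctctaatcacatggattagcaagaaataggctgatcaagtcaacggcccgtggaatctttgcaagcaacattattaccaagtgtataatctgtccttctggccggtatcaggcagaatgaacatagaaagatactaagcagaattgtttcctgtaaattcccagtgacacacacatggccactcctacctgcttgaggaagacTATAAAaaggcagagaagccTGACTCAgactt
Il1b: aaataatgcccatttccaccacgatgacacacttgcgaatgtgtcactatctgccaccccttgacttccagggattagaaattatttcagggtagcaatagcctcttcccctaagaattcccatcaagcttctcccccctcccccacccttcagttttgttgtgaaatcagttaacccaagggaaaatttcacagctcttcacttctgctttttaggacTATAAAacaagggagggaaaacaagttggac
Il18: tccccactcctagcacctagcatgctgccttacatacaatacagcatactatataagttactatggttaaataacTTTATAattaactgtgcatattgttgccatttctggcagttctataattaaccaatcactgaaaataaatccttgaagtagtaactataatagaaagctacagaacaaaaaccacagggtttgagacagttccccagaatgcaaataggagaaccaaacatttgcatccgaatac

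The promoters of Il1a and Il1b shared the TATAAA letters at nearly the same place, 32 to 27 and 31 to 26 bases before the start. Il1a alone of the 4 ligands had an AP-1 type match, 12 to 6 bases before its start, and Il1f9 alone had the Maf type letters, 157 to 151 bases before its start. The Il18 match to TATAAA was on the opposite strand, 175 to 170 bases before the start. Over all 32851 promoters of the table, 12.4% held TATAAA, 6.75% TGANTCA and 3.81% TGCTGAC. These 3 motifs were added after the sequences had been read. The motifs listed first were TGACNNNGC (NRF2 type, 10.2% of all promoters), GGANTTTCC (NF-kB type, 1.07%) and TTGCNNAA (C/EBP type, 9.56%), and these letters occurred in 0 of the 8 windows that the table holds for the 6 genes. The windows include 3 starts of Il1rn, the first of which had an AP-1 type match, and 1 of Il1r2.

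After the limits of the study on detected genes and on mitochondrial and ribosomal UMIs, 9247 control cells (median 11754 UMIs) and 9690 heme cells (median 11047 UMIs) were analysed. The cultures held 356 to 2563 cells in the control library and 1118 to 2481 in the heme library, with 2271401 to 32835088 UMIs each. On days 3 to 7 between 4.82% and 8.34% of the control singlets had over 5000 genes and were left out, against 16.4% to 33.9% of the heme singlets. On day 0 the ribosomal limit took out 75.0% of the control and 24.9% of the heme singlets, so 356 and 1118 cells were kept. The day 0 control levels of Il1a, Il1f9 and Il18 rest on 2, 5 and 6 UMIs. The libraries shared 112 barcodes, of which 29 were among the analysed cells. Levels are given as CPM, the UMIs of a gene per 1000000 UMIs summed over the cells of a culture or gate, and are compared between samples and not between genes. The median ratio of heme to control over all genes with 20 or more UMIs was already 1.24 on day 3 and 1.21 on day 7, so that a ratio of 1 lay slightly below the middle of all genes.

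From day 4 on Il1f9 parted furthest of the 6 genes between the libraries. In the control cultures its level was 2.20, 14.3, 39.0, 47.1 and 11.8 CPM on days 0, 3, 4, 5 and 7. In the heme cultures it was 8.54, 31.5, 178, 162 and 147 CPM on the same days. The control level thus rose until day 5 and fell on day 7 to 0.251 of its day 5 value [0.223, 0.281], whereas the heme level rose within 1 day of exposure and stayed high (0.907 of the day 5 value on day 7 [0.866, 0.951]). The ratio of heme to control was 4.56 [4.26, 4.88], 3.44 [3.22, 3.68] and 12.5 [11.2, 13.9] on days 4, 5 and 7. On day 7 this ratio was the 87th highest among 12838 genes. The libraries differed before exposure as well, since the ratio was 2.20 on day 3 [1.96, 2.47]. Relative to that starting difference, the ratios of days 4, 5 and 7 came to 2.07, 1.57 and 5.67.

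The share of cells with an Il1f9 UMI showed the same order of the libraries. With every cell thinned to 5000 UMIs, the share was 14.6%, 17.1% and 3.97% in the control cultures on days 4, 5 and 7. It was 51.1%, 47.3% and 46.5% in the heme cultures. Without thinning the shares on day 7 were 9.25% and 69.7%. The transcript was thus spread over many heme cells. On day 7 the 5% of cells richest in it held 22.7% of its UMIs in the heme culture against 72.1% in the control culture. Such a share depends on the number of UMIs, which was 3963 in the heme culture and 387 in the control culture.

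**Figure D1:**
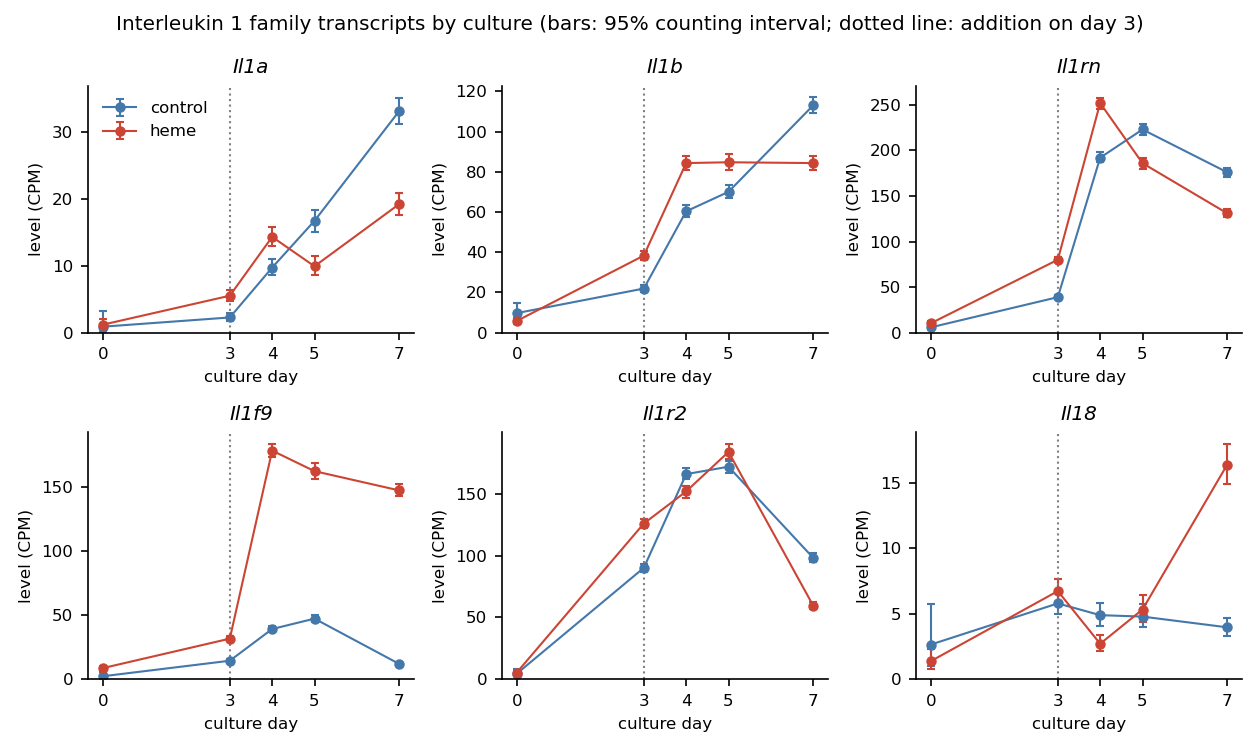
Level in CPM (y axis, from 0, a scale for each gene) against culture day (x axis) in the control (blue) and heme (red) library; bars are 95% counting intervals and the dotted line marks the addition on day 3. Il1f9 stands at 147 CPM under heme on day 7 against 11.8 CPM in the control, and Il18 at 16.4 against 3.96 CPM, whereas Il1a, Il1b, Il1rn and Il1r2 end lower under heme.

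Il18 was the only other member past 2-fold on day 7. Its control level was low throughout, at 2.64, 5.79, 4.89, 4.78 and 3.96 CPM on days 0, 3, 4, 5 and 7. Its heme level was 1.37, 6.73, 2.70, 5.32 and 16.4 CPM. The ratio was 1.16 [0.948, 1.43], 0.551 [0.408, 0.739], 1.11 [0.847, 1.46] and 4.15 [3.40, 5.08] on days 3, 4, 5 and 7. A higher level under heme was therefore seen on day 7 and not on the days before, when 74 and 103 UMIs were counted in the heme cultures of days 4 and 5. With TMM or DESeq2 factors the day 3 and day 5 ratios of Il18 were below 1.

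Il1a and Il1b, the ligands of the signalling receptor Il1r1, took another course. Il1a was at 0.881, 2.26, 9.71, 16.7 and 33.1 CPM in the control cultures and at 1.18, 5.51, 14.3, 9.91 and 19.2 CPM in the heme cultures. Its ratio was 2.44 [1.83, 3.29], 1.47 [1.25, 1.73], 0.594 [0.499, 0.706] and 0.581 [0.523, 0.646] on days 3, 4, 5 and 7. Il1b climbed in the control cultures from 9.69 and 21.9 CPM on days 0 and 3 to 60.3, 70.0 and 113 CPM on days 4, 5 and 7. In the heme cultures it went from 5.79 and 38.3 CPM to 84.3, 84.7 and 84.3 CPM, a plateau from day 4 on. Its ratio was 1.75 [1.59, 1.92], 1.40 [1.31, 1.49], 1.21 [1.13, 1.29] and 0.746 [0.708, 0.786] on days 3, 4, 5 and 7. The sign of the day 5 ratio of Il1b turned with all singlets and with division by the day 3 ratio, and division by the day 3 ratio also put the day 4 ratios of Il1a and Il1b below 1 (0.603 and 0.800).

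The inhibitors Il1rn and Il1r2 passed through a maximum on days 4 and 5. Il1rn was at 5.72, 38.9, 192, 223 and 176 CPM in the control cultures and at 10.2, 80.0, 252, 186 and 131 CPM in the heme cultures. Its ratio was 2.06 [1.92, 2.21], 1.31 [1.26, 1.36], 0.834 [0.800, 0.870] and 0.748 [0.717, 0.780] on days 3, 4, 5 and 7. Il1r2 was at 4.40, 90.1, 166, 172 and 98.2 CPM in the control cultures and at 5.30, 126, 152, 184 and 59.5 CPM in the heme cultures. Its ratio was 1.40 [1.33, 1.47], 0.910 [0.872, 0.950], 1.07 [1.03, 1.12] and 0.606 [0.571, 0.644] on days 3, 4, 5 and 7. Both inhibitors were thus lower under heme on day 7, and the day 5 ratio of Il1r2 lay so near 1 that its sign depended on the scaling. The day 4 ratio of Il1rn was 0.637 once divided by that of day 3.

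Read against all genes, 3 of the 6 members were over 2-fold higher in the heme library on day 3, namely Il1a, Il1rn and Il1f9, where 8.04% of all genes were higher and 0.524% lower by this measure. On day 4 this held for 1 member, Il1f9, beside 9.65% of all genes higher and 2.92% lower. On day 5 it held again for Il1f9 alone, beside 9.10% higher and 3.75% lower. On day 7 it held for Il1f9 and Il18, beside 14.3% higher and 7.24% lower. On each of these days 0 members were over 2-fold lower. The median log2 ratio of the 6 members went from 0.92 on day 3 to 0.44, 0.13 and -0.42 on days 4, 5 and 7, while that of all genes was 0.31, 0.28, 0.25 and 0.27. The 4 members other than Il1f9 and Il18 moved from above to below the middle of all genes.

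**Figure D2:**
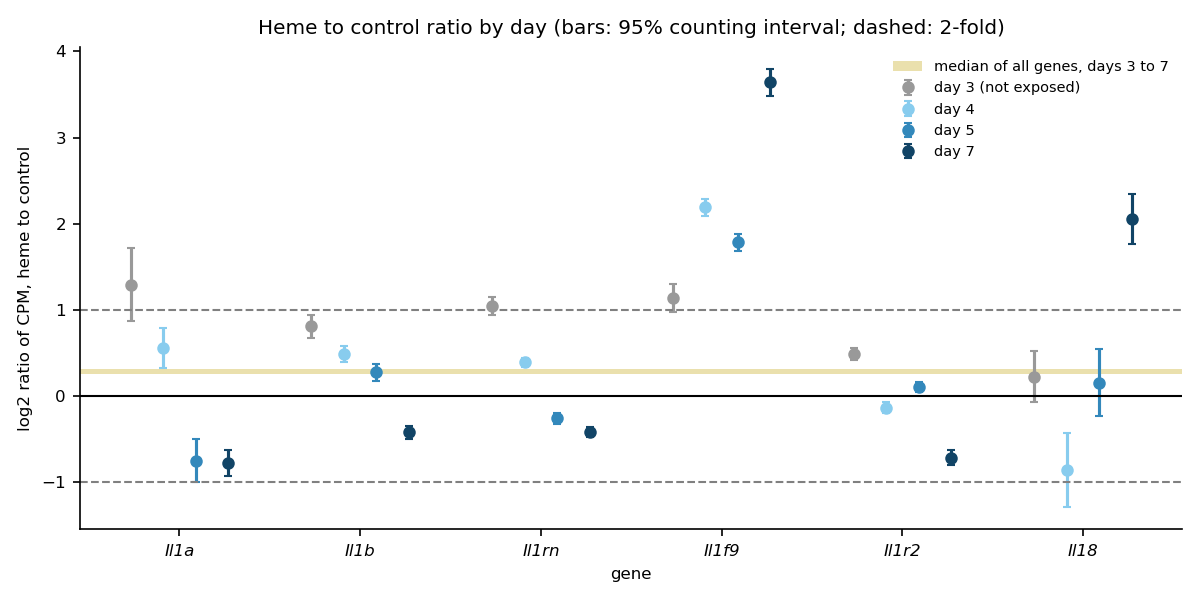
Log2 ratio of CPM, heme to control (y axis), for each gene (x axis) on days 3, 4, 5 and 7 (grey to dark blue); bars are 95% counting intervals, dashed lines mark 2-fold and the yellow band spans the medians of all genes. On day 7 Il1f9 (3.64) and Il18 (2.05) lie above the upper dashed line and the other 4 genes lie between -0.78 and -0.42.

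To see which cells held these transcripts, cells were gated on UMIs. S100a8-high cells had S100a8, a protein abundant in neutrophils, at 1% or more of their UMIs. Of the other cells, Marco+ cells had 3 or more UMIs of Marco, a scavenger receptor of macrophages, Arg1+ cells had 5 or more UMIs of Arg1, arginase of alternatively activated macrophages, and gate-negative cells had neither. Marker lists were read in each gate on day 7, and since S100a8, Marco and Arg1 are themselves in these lists, the counts are in part fixed by the gates. The S100a8-high cells had 10 of 10 neutrophil markers at 10 CPM or more in both libraries. The Marco+ cells had 7 of 8 macrophage markers at that level, the exception being C1qa, but also 4 of 4 monocyte and 8 of 10 neutrophil markers, with summed levels of 2539.6, 522 and 2943 CPM for the 3 lists. The Arg1+ cells had 5 of 5 markers of Arg1 macrophages and 6 of 8 general macrophage markers, with Spic at 0, beside 4 of 4 monocyte and 7 of 10 neutrophil markers. The 5 markers of Arg1 macrophages were at 10 CPM or more in the S100a8-high and gate-negative control cells as well, and their summed level was 5637 CPM in the S100a8-high and 5412 CPM in the Arg1+ cells. These sums differed in makeup. Chil3 was at 5296 CPM in the S100a8-high and 294 CPM in the Arg1+ cells. Arg1 and Fn1 were at 106 and 75.8 CPM in the former and 2267 and 2032 CPM in the latter. Since markers of several lists were found in each gate, the gates are called by their gating genes and not by a cell type. Gate-negative cells were mixed, with macrophage, monocyte and dendritic cell markers, and 267 of the 2151 control cells of day 7 in this gate had 2 or more UMIs each of Ccr7 and Fscn1, markers of mature dendritic cells. Ccr7 Fscn1 cells also had 7 of 10 neutrophil markers at 10 CPM or more. Their neutrophil sum under heme, pooled over days 4, 5 and 7, was 2942 CPM, close to the 2986 CPM of the Marco+ cells of the same days. In the control of day 7 it was 1107 CPM, against 1806 CPM in the Arg1+ cells. By their sum the neutrophil markers thus do not set Marco+ cells apart from Ccr7 Fscn1 cells, and the part of free RNA in them was not tested. Single markers differed. Over days 4, 5 and 7 of the heme library Csf3r was at 38.2 CPM in Marco+ and 6.30 CPM in Ccr7 Fscn1 cells. S100a8, Camp and Cxcr2 were at 966, 74.3 and 1.20 CPM in the former and 1345, 80.1 and 4.08 CPM in the latter. The summed level of the 10 neutrophil markers in gate-negative cells of day 7 differed, at 4280.3 CPM with heme against 1660.3 CPM without. For the 8 macrophage markers the sums were 951 and 522 CPM, and for the 6 dendritic cell markers 311 and 1228 CPM. The part of this makeup in the ratios of gate-negative cells was not tested, except that leaving out Ccr7 Fscn1 cells and cells with 5 or more Mcpt8 UMIs gave day 7 ratios of 13.9 for Il1f9, 4.10 for Il18, 0.503 for Il1a and 0.575 for Il1r2.

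The gates were filled unequally, and this bears on every comparison between whole cultures. On days 3, 4, 5 and 7 the control cultures were 54.1%, 68.8%, 57.4% and 5.31% S100a8-high cells, and the heme cultures 61.0%, 83.4%, 73.8% and 23.3%. Arg1+ cells reached 50 cells in the control culture of day 7 only (264 cells, 10.3%). Within the limits used, Marco+ cells reached 50 cells in the heme culture of day 7 only (712 cells, 35.4%). With singlets of 500 or more genes and no other limit, the heme culture of day 5 held 89 Marco+ cells. By that wider choice gate-negative cells of days 4 and 5 numbered 805 and 1152 under heme, against 399 and 473 within the limits. In the control they numbered 813 and 1251, against 654 and 993. At most 2.21% of the S100a8-high cells of a culture also carried Arg1 or Marco UMIs at the gate limits.

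Il1f9 was higher under heme in both gates that could be compared. In S100a8-high cells its level was 13.4, 57.9, 111 and 103 CPM in the control library on days 3, 4, 5 and 7 and 30.5, 201, 223 and 143 CPM in the heme library. The ratio in these cells was 2.27 [1.93, 2.68] before exposure on day 3, and 3.46 [3.22, 3.73], 2.00 [1.86, 2.15] and 1.39 [1.08, 1.79] on days 4, 5 and 7, so that it was above the day 3 ratio on day 4 only. In gate-negative cells the control level was 15.3, 13.1, 11.6 and 8.56 CPM and the heme level 33.2, 105, 83.4 and 130.5 CPM. The ratio there was 2.18 [1.85, 2.57] on day 3 and 7.99 [6.67, 9.64], 7.19 [6.12, 8.49] and 15.2 [13.3, 17.6] on days 4, 5 and 7, above the day 3 ratio each time. In the control cultures the Il1f9 level was thus highest in S100a8-high cells from day 4 on, 12.0 times as high there as in gate-negative cells on day 7, whereas under heme on day 7 the corresponding ratio was 1.09 [0.992, 1.20]. Before exposure, on day 3, the level did not differ between these gates beyond counting error in either library. The ratio was then 0.882 [0.724, 1.07] in the control and 0.918 [0.810, 1.04] in the heme library.

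The Marco+ cells of the heme culture had Il1f9 at 164 CPM [157, 172], and the Arg1+ cells of the control culture at 19.4 CPM, a ratio of 8.46 [6.72, 10.8]. These gates come from different libraries and are different cells. On day 7 the Marco+ cells held 48.9% of the Il1f9 UMIs of the heme culture with 43.8% of all its UMIs, the gate-negative cells 36.0% with 40.5% and the S100a8-high cells 15.1% with 15.5%. The transcript was therefore shared out in these cells nearly as all UMIs were. On day 4 the S100a8-high cells held 85.8% of the Il1f9 UMIs with 57.7% of all UMIs in the control culture, and 85.5% with 75.7% in the heme culture.

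Free RNA in the droplets sets a background, and it was gauged in cells with both Ccr7 and Fscn1 pooled over days 4, 5 and 7. In these cells Il1f9 was at 1.73 CPM in the control library (414 cells) and 9.64 CPM in the heme library (158 cells). With thinning, 0.246% and 2.56% of them had an Il1f9 UMI, at median depths of 12742 and 17254 UMIs. In gate-negative cells of day 7 the shares were 3.37% in the control culture and 42.5% in the heme culture, at median depths of 12391 and 13080.5 UMIs. The day 0 culture of the heme library, which never met heme, also carried the transcript, at 8.07 CPM in gate-negative cells, or 7.19% of the mean of its library. In the same cells Marco stood at 6.63% and Hmox1, the heme oxygenase, at 6.93% of their library means. Other genes differed more, with S100a8 at 1.89% and the other members from 4.13% (Il1r2) to 19.0% (Il18). Arg1, with a library mean of 0.831 CPM, was at 132%. The part of free RNA in the day 0 and day 3 ratios of Il1f9 was not tested.

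**Figure D3:**
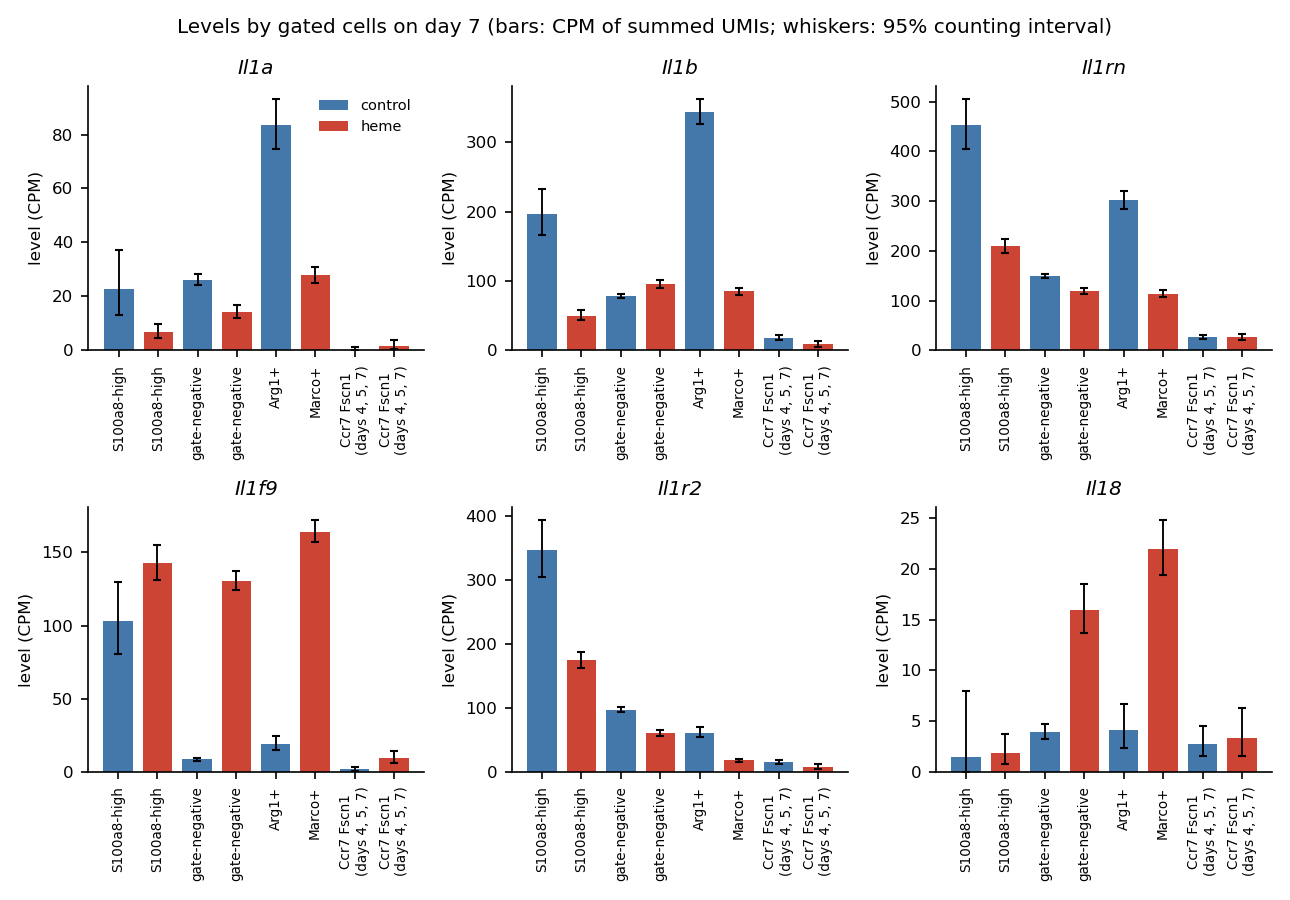
Level in CPM (y axis, from 0, a scale for each gene) in gated cells (x axis) of the control (blue) and heme (red) cultures, on day 7 except for Ccr7 Fscn1 cells, which are pooled over days 4, 5 and 7; whiskers are 95% counting intervals. Il1f9 is at 130.5 to 164 CPM in the 3 heme gates of day 7, and Il1a and Il1b are highest in the Arg1+ cells of the control culture, at 83.7 and 344 CPM.

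On day 7 Il18 was found in Marco+ and gate-negative cells and hardly in S100a8-high cells. Its level under heme was then 22.0 CPM in Marco+ cells [19.4, 24.8], 15.9 CPM in gate-negative cells [13.7, 18.5] and 1.91 CPM in S100a8-high cells [0.825, 3.77]. In the control culture it was 3.92 CPM in gate-negative cells and 4.15 CPM in Arg1+ cells. The ratio of heme to control in gate-negative cells was 4.06 [3.18, 5.21]. Marco+ cells held 58.5% of the Il18 UMIs of the heme culture of day 7. The order of Marco+ and gate-negative cells turned when cells were thinned. The control levels lay close to those of Ccr7 Fscn1 cells (2.77 CPM in the control and 3.34 CPM in the heme library). These cells stood at 61.5% and 39.7% of the Il18 means of days 4 to 7, against 5.60% and 5.94% for Il1f9. The S100a8-high cells of the heme culture lay lower than they did. Ccr7 Fscn1 cells thus cannot be taken as a gauge of background for Il18, and the part of free RNA in its control values was not tested.

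Il1a and Il1b were highest in the Arg1+ cells of the control culture on day 7, with 83.7 CPM of Il1a [74.8, 93.3] and 344 CPM of Il1b [326, 363]. Gate-negative cells of the same culture had 26.2 CPM of Il1a and 78.5 CPM of Il1b, so that Arg1+ cells were 3.19 times [2.79, 3.64] and 4.39 times [4.10, 4.70] as high. Arg1+ cells held 29.8% of the Il1a UMIs and 35.8% of the Il1b UMIs with 11.8% of all UMIs of the culture. Marco+ cells of the heme culture had 27.8 CPM of Il1a and 85.1 CPM of Il1b, which was 0.332 [0.284, 0.389] and 0.247 [0.227, 0.268] of the Arg1+ levels. Against gate-negative cells of their own culture, at 14.4 and 95.9 CPM, Marco+ cells were 1.93 times as high in Il1a [1.59, 2.36] and 0.887 times as high in Il1b [0.813, 0.968]. Few such transcripts were in Ccr7 Fscn1 cells, with 0.346 and 1.48 CPM of Il1a and 17.8 and 8.90 CPM of Il1b in the control and heme libraries.

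Within S100a8-high cells Il1b changed its order between the libraries with time. Its control level was 6.38, 19.6, 61.2 and 197 CPM on days 3, 4, 5 and 7, and its heme level 6.33, 39.2, 101 and 50.4 CPM. The ratio was 0.992 [0.752, 1.31], 2.00 [1.75, 2.30], 1.65 [1.49, 1.83] and 0.255 [0.205, 0.319] on days 3, 4, 5 and 7. The day 3 value joined opposite ratios in cells with more and with less than 0.1% of UMIs from Camp, a neutrophil granule protein, at 0.705 [0.508, 0.981] in Camp-high and 2.41 [1.40, 4.29] in Camp-low cells. This split is not an order of maturity. In the control, 5 progenitor markers (Elane, Prtn3, Mpo, Ctsg and Cd34) summed to 17957 CPM in Camp-low and 3953 CPM in Camp-high cells on day 3. On day 4 the sums were 6454 and 1091 CPM. From day 4 on, Camp-low cells held more Il1b than Camp-high cells. On day 5 the control level was 101 CPM in Camp-low cells and 23.8 CPM in Camp-high cells, and on day 4 the heme levels were 90.5 and 26.7 CPM. On day 7 the S100a8-high gate of the control held 136 cells with a median depth of 3744 UMIs, so its levels rest on few reads (138 UMIs of Il1b).

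In gate-negative cells Il1a and Il1b were higher in the heme library already on day 3, before exposure. They were then at 11.5 against 3.11 CPM and at 84.9 against 37.7 CPM. On day 4 they were at 44.2 against 20.8 CPM and at 218 against 116 CPM, with ratios of 2.13 [1.78, 2.54] and 1.88 [1.74, 2.03]. On day 5 both were lower under heme, with ratios of 0.654 [0.527, 0.808] and 0.838 [0.754, 0.930]. On day 7 the Il1a ratio was 0.549 [0.459, 0.653] and the Il1b ratio 1.22 [1.13, 1.32], the latter turning below 1 when cells of any gene number over 500 were included.

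From day 4 on Il1rn and Il1r2 were both highest in S100a8-high cells of their own culture, and both were lower there under heme on day 7. Il1rn rose in these cells from 32.3 CPM on day 3 to 216, 406 and 453 CPM in the control library, and from 68.6 CPM to 261, 259.8 and 209.5 CPM in the heme library. The ratio was 1.21 [1.16, 1.26], 0.640 [0.610, 0.673] and 0.462 [0.406, 0.527] on days 4, 5 and 7. Il1r2 stood at 127, 219, 297 and 347 CPM in the control library and at 179, 184, 296 and 175 CPM in the heme library. Its ratio was 0.838 [0.799, 0.878], 0.999 [0.949, 1.05] and 0.503 [0.434, 0.584] on days 4, 5 and 7.

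In gate-negative cells Il1r2 was lower under heme on each day after exposure. The ratio there was 0.929 [0.836, 1.03], 0.547 [0.482, 0.619], 0.405 [0.359, 0.455] and 0.617 [0.566, 0.672] on days 3, 4, 5 and 7. Marco+ cells of the heme culture had 18.2 CPM of Il1r2, against 7.79 CPM in the Ccr7 Fscn1 cells of the same library. Arg1+ cells of the control culture had 61.7 CPM, against 15.4 CPM in the Ccr7 Fscn1 cells of that library. The ratios of the whole cultures were nearer 1 on days 4 and 5, when S100a8-high cells held 91.9% and 90.4% of the Il1r2 UMIs of the heme cultures and 76.1% and 61.4% of those of the control cultures. For Il1rn, Marco+ cells were at 114 CPM and Arg1+ cells at 302 CPM, a ratio of 0.379 [0.350, 0.410].

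**Figure D4:**
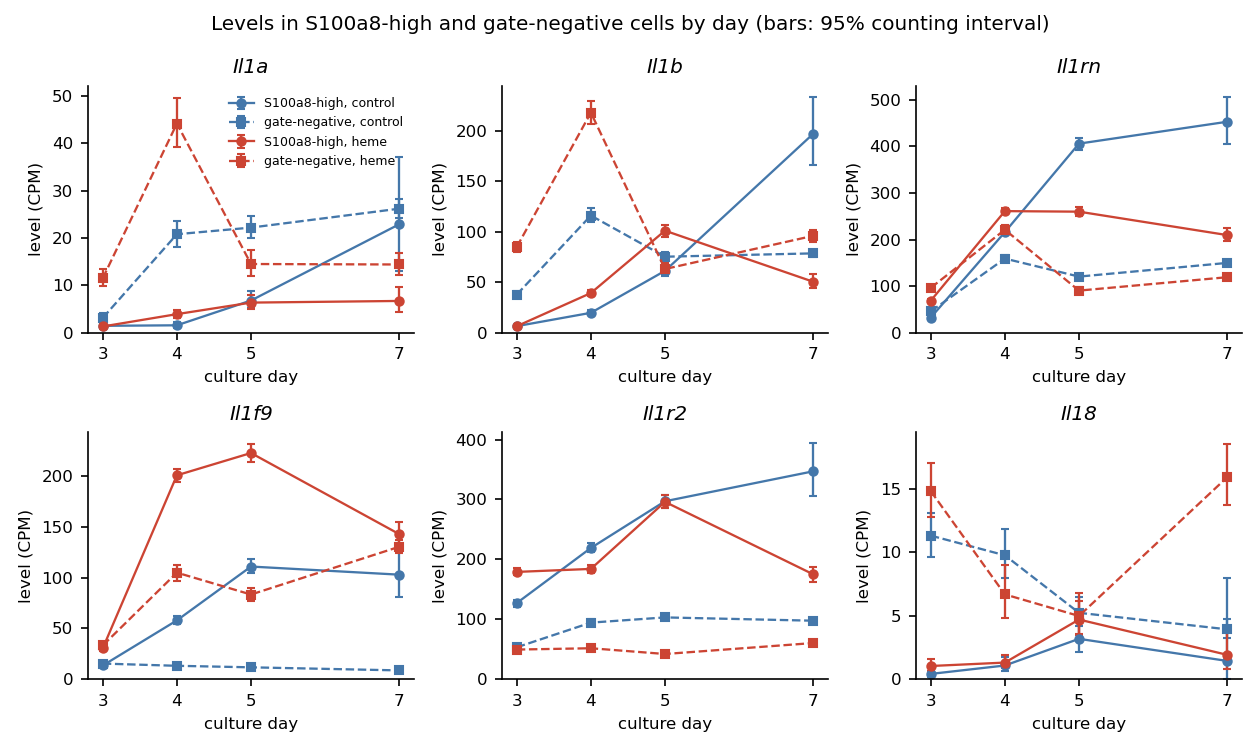
Level in CPM (y axis, from 0, a scale for each gene) against culture day (x axis) in S100a8-high cells (circles, full lines) and gate-negative cells (squares, dashed lines) of the control (blue) and heme (red) library; bars are 95% counting intervals. Il1f9 in gate-negative cells stays between 8.56 and 15.3 CPM in the control and lies between 83.4 and 130.5 CPM under heme after day 3, and Il1b in S100a8-high cells crosses from higher under heme on days 4 and 5 to lower on day 7.

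The levels of S100a8-high cells and of all other cells were weighted by the shares of these 2 groups in the other library. This evens out the share of S100a8-high cells only, and the makeup of the other cells still differed. On day 7 Marco+ cells were 35.4% of the heme and 0.429% of the control culture, and Arg1+ cells 0% and 10.3%. On day 7 the Il1f9 ratio was 12.5 at the control shares and 6.06 at the heme shares, and the Il18 ratio 4.73 and 4.54. The Il1r2 ratio of day 7, 0.606 as measured, was 0.420 and 0.450. On day 5 the Il1r2 ratio went from 1.07 to 0.765 and 0.870, and on day 4 those of Il1a and Il1b went from 1.47 and 1.40 to 2.26 and 1.95 at control shares and to 2.29 and 1.96 at heme shares. At equal shares of S100a8-high cells the Il1r2 ratio was thus lower than measured and the day 4 ratios of Il1a and Il1b higher, while Il1f9 and Il18 were over 2-fold higher on day 7 at either set of shares.

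Single cells with Il1a were more often among those with Il1b. At equal depth, 30.2% of the Il1b-positive and 6.47% of the Il1b-negative gate-negative control cells of day 7 had an Il1a UMI, Ccr7 Fscn1 and Mcpt8 cells left out. In Arg1+ cells the shares were 37.7% and 15.1%, and in Marco+ cells of the heme culture 25.6% and 7.36%. An Il1b UMI was found in 20.9% of the Il1f9-positive and 16.8% of the Il1f9-negative Marco+ cells, with overlapping counting intervals. In gate-negative cells of day 7, with the same cells left out, these shares were 28.5% and 16.1% under heme and 42.2% and 15.9% in the control, with intervals that did not overlap.

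Across the 20 pools of 1 gate in 1 culture with 50 or more cells, Il1a and Il1b were the most alike of the members (Pearson r of log2(CPM + 10) 0.88), followed by Il1rn and Il1r2 (0.75), while Il1r2 and Il18 went apart (-0.36). The pools share 2 libraries and their free RNA, so these values are a description. Of 8169 genes compared, those most like Il1f9 were Cln3 (0.96), Fam214b (0.94) and Plekhg1 (0.93). Il1a was most like Tmem189 (0.93), Slc2a1, a glucose transporter (0.91), and Slc7a2, an arginine transporter (0.89). Il1b was most like Il13ra1 (0.94), Grk5 (0.93) and Metrnl (0.92), and Il1rn most like Litaf (0.92), A530064D06Rik (0.92) and Ly6i (0.91). Il1r2 was most like B430306N03Rik (0.95), Ppp1r18 (0.94) and Pilrb2 (0.93), and Il18 most like Dusp7 (0.91), Mrc1, the mannose receptor (0.89), and Dse (0.89). With log2(CPM + 1), 1 of the 3 genes named for Il1f9 was again among its 3 closest, against 2 or 3 for the other members.

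Of 40 further genes of the pathway, 36 had 20 or more UMIs on day 7, and 10 of these were over 2-fold higher and 3 lower under heme, beside 14.3% and 7.24% of all genes. Their median log2 ratio was 0.36, beside 0.27 for all genes. Among the 7 receptor genes 4 were higher. Il1rl2, the receptor chain for the Il1f9 product, was at 16.3 CPM in the control and 36.3 CPM under heme on day 7 (ratio 2.22 [2.00, 2.47]), with ratios of 1.43, 1.62 and 2.14 on days 3, 4 and 5. On day 7 Il1rl2 was at 41.4 CPM in the Marco+ cells and 36.3 CPM in the gate-negative cells of the heme culture, where Il1f9 was also found, and at 15.6 CPM in the gate-negative cells of the control. Il1rap, the accessory chain shared by several receptors, had a ratio of 2.06 [1.81, 2.35], with 1.48 on day 3. Il18rap, the accessory chain for the Il18 product, had a ratio of 2.43 [2.16, 2.74], but its ratio was 2.70 before exposure, on day 3. Il1r1, the signalling receptor for Il1a and Il1b, had a ratio of 6.08 [3.90, 9.87] at low levels, 0.732 CPM in the control and 4.45 CPM under heme. These levels rest on 24 and 120 UMIs. On day 3 the Il1r1 ratio was 2.67 [0.922, 9.39], from 5 and 15 UMIs. The lower receptor was Il1rl1, which binds the Il33 product, at 21.7 CPM in the control and 3.34 CPM under heme (ratio 0.154 [0.122, 0.191]).

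Of the 6 other ligands and binding proteins, 2 were tested on day 7. Il33 was lower, with 24 UMIs in the control culture and 1 in the heme culture, a ratio of 0.0507 with an interval of 0.00123 to 0.311. Of 12 inflammasome and processing genes, 4 were higher and 1 lower, beside 14.3% and 7.24% of all genes. Nlrc4, an inflammasome sensor, had a ratio of 2.60 [2.22, 3.04], though it was 2.01 on day 3, and Capn2, a calpain, had a ratio of 3.18 [2.96, 3.42] with 1.19 on day 3. Elane and Prtn3, proteases of neutrophil precursors that can cut these cytokines, had ratios of 2.67 and 2.55 on day 7 after 0.451 and 0.461 on day 3. On day 7 Elane was at 234 and 190.2 CPM in the S100a8-high cells of the heme and control cultures. Pycard, the adaptor that joins inflammasome sensors to caspase-1, was at 703 CPM in the control and 339.8 CPM under heme (ratio 0.483 [0.472, 0.495]). Pycard was lower in each gate compared on day 7, for example 346 against 674 CPM in gate-negative cells.

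Among 15 signalling genes 2 were over 2-fold higher on day 7 and 0 lower, beside 14.3% and 7.24% of all genes. On day 3, before exposure, 2 were higher and 0 lower, beside 8.04% and 0.524% of all genes. Irak3, an inhibitory member of the Irak kinases, had a ratio of 3.13 [2.89, 3.41], with ratios of 2.10, 2.33 and 2.69 on days 3, 4 and 5. Irak3 was at 75.5 CPM in the Marco+ cells and 72.5 CPM in the gate-negative cells of the heme culture, against 22.0 CPM in the gate-negative cells of the control. Zc3h12a, a nuclease that degrades transcripts of inflammatory genes, had a ratio of 2.27 [2.04, 2.52], with 1.44 on day 3.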

How the data were processed

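Lineage-depleted cells of 2 libraries, each with 5 hashtagged culture days, were profiled by droplet 3′ sequencing. The authors deposited a matrix of unnormalised UMI counts for each library. Cell Ranger is given as 4.0.0 in the submitters' processing notes and 5.0.0 in the matrix headers, with the build GRCm38.p6. Other tools in those notes are Seurat 3.2.3, Scanpy 1.6.0 and R 4.4. The hashtag calls of the authors were used as deposited and were the only treatment of doublets. Exposure times in hours (0, 24, 72 and 96 h) and labelled harvest days differ for day 5, so days are used.

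Singlets with 500 to 5000 genes, under 15% mitochondrial and under 30% ribosomal protein UMIs were kept. The methods word both percentages the other way, and they were read as upper limits. Counts were summed per culture or gate of 50 or more cells and scaled to CPM. Intervals were exact at 95% (Poisson for levels, conditional binomial for ratios, Clopper-Pearson for shares) and cover counting error only. A gene was tested, that is compared, from 20 UMIs in both cultures together, and called past 2-fold. Thinning was to 5000 UMIs, which kept 15658 of 18937 cells. The code was tested on simulated counts. Pathway genes past 2-fold on day 7 with 100 or more UMIs were named, as were the 3 genes most like each member. Il33 was named after its values were seen. Members and lists were chosen with earlier results of these data known. Promoters came from RefSeq and positions from GENCODE M21. Protein sequences were not used here. Python 3.11.15, scipy 1.17.1, edgeR 4.0.16 and DESeq2 1.42.0 were used, the last 2 for scaling factors only.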

Additional observations from a re-analysis of the deposited data

Results flagged for a closer look

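For 5 of the 6 genes the log2 ratio of heme to control had opposite signs on 2 of the days after exposure, with intervals of the ratio on either side of 1. With 1 culture a day and library, these differences between days were not tested. Il1a stood at 0.56 on day 4 but at -0.78 on day 7. For Il1b the values were 0.48 and -0.42 on these days, and for Il1rn 0.39 and -0.42. The day 4 values of these 3 genes were below 0 once the day 3 ratio was divided out. Il1r2 stood at 0.10 on day 5 but at -0.72 on day 7, and its day 5 value turned with the scaling. Il18 stood at -0.86 on day 4 but at 2.05 on day 7.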

How the results depend on the processing

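No sample could be left out, since each group was 1 library. No paired analysis was possible because no result comes from a test and each group was 1 library. All 53 alternative values of culture ratios past 2-fold and all 151 of gate ratios past 2-fold kept their sign. Over all ratios 166 of 186 and 357 of 372 did. Size was kept less often, since 99 of 186 culture ratios and 50 of 372 gate ratios were counted as moved. For example, the day 7 log2 ratio of Il1f9 was 3.64 in the main analysis and 2.66 as the mean over cells. The bracketed intervals do not cover such shifts. On day 7 the log2 ratios of Il1a, Il1b, Il1rn, Il1f9 and Il1r2 were -1.03, -0.67, -0.67, 3.39 and -0.97 with TMM factors and -1.02, -0.66, -0.66, 3.40 and -0.96 with DESeq2 size factors. They were -1.15, -0.66, -0.67, 2.66 and -0.50 as the mean over cells, and -2.07, -1.23, -1.46, 2.50 and -1.21 after division by the day 3 ratio. With all singlets Il1b was at -0.57 and Il1r2 at -1.10, and with singlets of 500 or more genes at -0.56 and -1.10. Il18 moved by less than its interval. The count of members over 2-fold lower was 1 in place of 0 on day 4 with TMM, DESeq2, division by day 3, a 1.5-fold limit and scaling to the all-gene median. On day 5 it was 1 with TMM, the 1.5-fold limit and by the all-gene median and 2 with division by day 3, which also left 0 members higher. On day 7 it was 1 with all singlets, 500 or more genes, TMM, DESeq2, the mean over cells and by the all-gene median, 2 at 1.5-fold and 4 with division by day 3. The cause was not tested. TMM and DESeq2 brought the all-gene median on day 7 from 0.27 to 0.03. Of the genes past 2-fold on day 7, 66.4% were higher, against 48.7% with TMM, 49.1% with DESeq2, 47.1% by the all-gene median and 43.8% with division by day 3. These shares were 76.8%, 41.9%, 48.2%, 41.5% and 42.3% on day 4 and 70.8%, 43.2%, 47.5%, 46.0% and 36.1% on day 5. Shares of cells with a UMI moved with thinning depth in all 96 values, with the same order of the libraries in 30 of 36. The background share of genes past the limit was 31.2% higher and 13.5% lower at 1.5-fold on day 7. Depth limits Il18 and the S100a8-high control cells of day 7 most. Ccr7 Fscn1 cells pooled over days, gate-negative cells without Ccr7 Fscn1 and Mcpt8 cells, weights over 2 groups and 3 motifs were chosen after seeing the data.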
